A study of Mus musculus with 10 samples.

Results

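Translation initiation factors and aminoacyl-tRNA synthetases were examined by RNA sequencing in mouse liver and mouse liver tumors. Members were chosen by symbol alone. Every entry whose symbol begins with Eif and a digit from 1 to 6 was taken, except the 4E-binding proteins and the entries Eif2s3x and Eif2s3y. To these were added every symbol made of a synthetase letter code and ars, with or without a final 1 or 2, and Farsa and Farsb. This gave 86 of 16697 gene entries. There were 52 initiation factor entries, 19 cytosolic synthetases and 15 mitochondrial synthetases, which are the symbols that end in 2. Kars and Gars each encode both forms and were kept in the cytosolic class. Among the initiation factor entries, Eif1-ps1, Eif3s6-ps2 and Eif4a-ps4 are annotated pseudogenes. Their values are uncertain because they share reads with near-identical coding copies.

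The groups were normal liver (NL, n = 4), c-MYC tumors (n = 3) and c-MYC/FOXO1AAA tumors (n = 3), which carry both transgenes and are called FOXO1AAA tumors here. Tumors were raised by hydrodynamic tail vein injection, which drives plasmids into hepatocytes of the living mouse, with a Sleeping Beauty transposase for insertion. Both tumor groups carried c-MYC in the vector pT3-EF1α, whose EF1α promoter is not limited to a cell type. The c-MYC group also received the empty pT3-EF1α vector, and the other group received FOXO1AAA, a MYC-tagged FOXO1 that AKT cannot phosphorylate. The labels call every mouse WT. They give the strain as C57BL/6 in one field and FVB/N in another. The study names FVB/N for the normal livers and for mice given these plasmids. The design text of the series names MCL1 as the partner of c-MYC, which the sample titles and the methods do not. The study's plasmid list for such mice has no MCL1, while a figure legend names it for the controls. The ages of the mice are not given in the sources used here. The comparison of the tumor groups asks what active FOXO1 changes in c-MYC tumors, and the comparisons with NL place both against normal tissue.

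Translation of most mRNAs starts when eIF4F binds the cap, eIF2 brings the initiator tRNA to the small ribosomal subunit, eIF3 holds the complex together, and eIF5 and eIF5B let the large subunit join. Aminoacyl-tRNA synthetases attach each amino acid to its tRNA, with separate enzymes for the cytosol and for mitochondria in most cases. In the liver both gene groups serve a high output of secreted protein, and c-MYC is known as an activator of many genes for protein synthesis.

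Each library held 13.1 to 20.5 M (mega) reads in listed genes. Foxo1, read as a check of the labels, averaged 7.14 FPKM in NL (SD 0.532, n = 4), 5.63 FPKM in c-MYC (SD 0.721, n = 3) and 83.1 FPKM in FOXO1AAA (SD 12.8, n = 3). FPKM are fragments scaled to gene length and library size. Mouse Myc was low in both tumor groups, at 0.771 ± 0.254 and 0.983 ± 0.118 FPKM against 11.2 ± 8.17 in NL, and no source says if transgene reads were counted there. The summed level of 10 hepatocyte markers was 84374 to 94518 FPKM in NL, 3976 to 5799 in c-MYC and 911 to 1586 in FOXO1AAA. Summed levels of 6 skeletal muscle markers were 2.15 to 3.64, 5.42 to 5.77 and 199 to 258 FPKM in the same order, with up to 3 of the 6 at 0 reads in NL and in c-MYC. Those of 7 stellate cell and fibroblast markers were 80.6 to 102, 14.4 to 46.3 and 461 to 482 FPKM. The sums for 5 proliferation genes were 4.47 to 24.5, 298 to 352 and 221 to 238 FPKM. Endothelial marker sums were 45.2 to 60.7, 9.81 to 17.3 and 26.3 to 41.0 FPKM, and those of Kupffer cells 197 to 346, 95.9 to 137 and 47.0 to 80 FPKM. Cholangiocyte and leukocyte sums did not exceed 38.1 and 24.6 FPKM in any library. In these bulk samples, fewer cells of a type and less RNA per cell cannot be told apart.

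Promoter sequences were taken from RefSeq (GRCm38.p6), which held 64 of the 86 members, as windows from 250 bases before to 50 bases after each annotated start. Only the 250 bases before the start were searched. The motifs were the c-MYC E-box CACGTG, which reads the same on both strands, the forkhead motif TGTTTAC and the amino acid response element TGATGCAA. The latter 2 were searched on both strands. CACGTG was present for 12 of 64 members (18.8%), against 9.58% of the 11718 genes of the expression table with a window and 6.02% of all 32851 windows. It was found for 9 of 40 initiation factors, 3 of 11 cytosolic synthetases and 0 of 13 mitochondrial synthetases. Among members called higher in c-MYC than in NL (the test is given below with the first comparison) 7 of 36 had it (19.4%), and among the other members 5 of 28 (17.9%). TGTTTAC was found for 2 of 64 members (3.12%), Iars2 and Vars2, against 2.94% of genes and 3.17% of windows. TGATGCAA was found for Aars and Tars, against 0.717% of genes and 0.791% of windows. A match is a description of these letters and not of binding, which was not measured.

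The sequences below are upstream stretches, all but that of Mars2 from members with a match, and capitals mark CACGTG. They do not stand for the members as a whole, of which 12 of 64 had it. Cars2, Eif2ak3, Eif5b, Eif3a, Eif2b4 and Eif1ax, which were called between the tumor groups, had no match and are not shown. Eif5a2 (chr3:28781109-28781275, plus strand) had 2 matches, which begin 142 and 117 bases before the start. Eif3f (chr7:108934165-108934414, plus), Eif4a1 (chr11:69672424-69672673, minus), Farsb (chr1:78488898-78489147, minus) and Iars (chr13:49681880-49682099, plus) each had 1 match, at 68, 189, 39 and 69 bases before the start. Mars2 (chr1:55236927-55237176, plus) had none and is shown as a member without the motif.
Eif5a2: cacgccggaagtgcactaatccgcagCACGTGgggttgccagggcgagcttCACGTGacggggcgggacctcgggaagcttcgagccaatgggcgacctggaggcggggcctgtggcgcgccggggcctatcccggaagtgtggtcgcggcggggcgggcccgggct
Eif3f: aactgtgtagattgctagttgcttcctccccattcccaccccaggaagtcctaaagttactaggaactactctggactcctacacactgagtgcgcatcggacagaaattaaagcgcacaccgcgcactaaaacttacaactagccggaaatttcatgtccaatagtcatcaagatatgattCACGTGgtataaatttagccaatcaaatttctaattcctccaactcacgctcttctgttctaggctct
Eif4a1: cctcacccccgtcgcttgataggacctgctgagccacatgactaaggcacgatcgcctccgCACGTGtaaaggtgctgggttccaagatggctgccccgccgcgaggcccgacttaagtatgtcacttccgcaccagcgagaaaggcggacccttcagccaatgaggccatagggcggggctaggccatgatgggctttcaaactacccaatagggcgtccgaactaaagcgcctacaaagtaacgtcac
Farsb: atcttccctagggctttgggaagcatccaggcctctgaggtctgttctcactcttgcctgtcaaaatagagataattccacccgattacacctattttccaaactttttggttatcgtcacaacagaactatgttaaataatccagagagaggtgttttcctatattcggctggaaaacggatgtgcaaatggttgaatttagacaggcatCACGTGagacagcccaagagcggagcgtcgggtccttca
Iars: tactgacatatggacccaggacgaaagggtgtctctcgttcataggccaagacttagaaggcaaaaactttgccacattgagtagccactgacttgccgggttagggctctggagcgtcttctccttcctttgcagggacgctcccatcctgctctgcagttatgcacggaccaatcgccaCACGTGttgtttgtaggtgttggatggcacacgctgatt
Mars2: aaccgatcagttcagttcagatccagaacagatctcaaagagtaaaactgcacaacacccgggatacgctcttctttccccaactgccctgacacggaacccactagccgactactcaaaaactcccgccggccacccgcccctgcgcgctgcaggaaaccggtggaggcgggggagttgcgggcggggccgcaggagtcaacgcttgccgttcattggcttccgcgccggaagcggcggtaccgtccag
The 5 members shown with a match moved differently among the groups. Eif4a1, Farsb and Iars were higher in c-MYC than in NL, while Eif3f and Eif5a2 had their larger difference between the tumor groups. Mars2, with no match in the bases searched, had the largest fold of all members in c-MYC.

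In c-MYC tumors, most members were higher than in NL. Of 86 members, 47 were called higher (54.7%) and 4 lower (4.65%), where called means a limma treat test against a 1.5-fold change with a Benjamini-Hochberg adjusted p under 0.05 over all 14017 entries tested. Over all entries, 24.5% were called higher and 23.6% lower. By class, the called genes were 26 higher and 2 lower of 52 initiation factor entries, 14 and 1 of 19 cytosolic synthetases, and 7 and 1 of 15 mitochondrial synthetases. The median log2 fold change was 0.90 for the members and 0.08 for all entries. All libraries of one group lay above all of the other for 68 members in favor of c-MYC and for 6 in favor of NL, against 39% and 34.9% of all entries. Members took 2.02% to 2.06% of the reads in c-MYC and 0.642% to 0.701% in NL. The scaling between libraries matters for these counts. With every library set to the same FPKM total, the median of all entries moved from 0.08 to 1.01, 74 members were called higher and 1 lower, and the members' median stayed 0.82 above that of all entries. Cell type markers moved with this comparison (their sums are given above). Of the tested markers, 9 of 10 for hepatocytes and 3 of 5 for endothelium were called lower. For Kupffer cells, 3 of 7 were called lower and 1 higher. Stellate cell and fibroblast markers were mixed, with 3 of 7 called lower, 1 higher and a median log2 fold change of 0.30. Of 4 cholangiocyte markers, 2 were called higher and 1 lower. All 5 proliferation genes and 1 of 6 skeletal muscle markers were called higher. The part of these cells or genes in the members' changes was not tested.

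**Figure D1:**
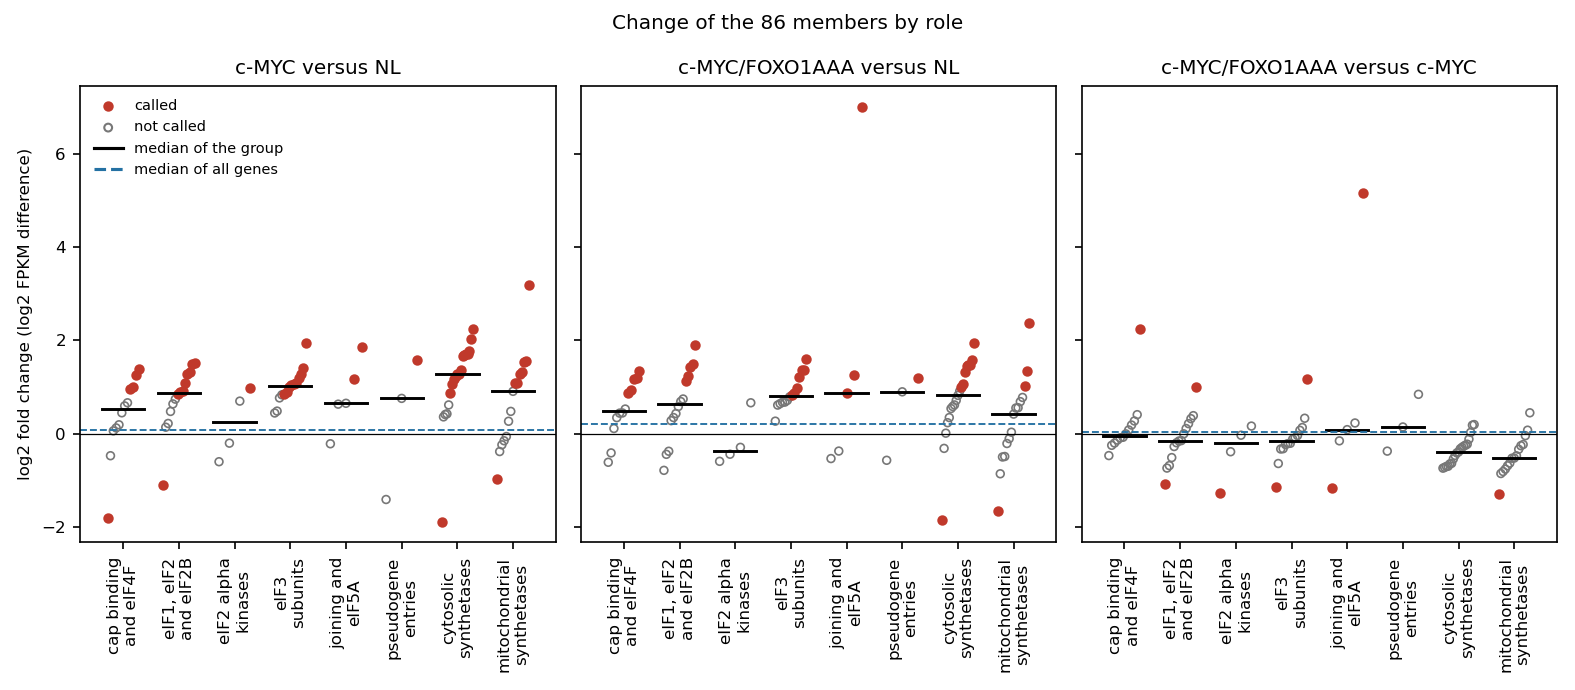
Log2 fold change of each of the 86 members, grouped by role, in the 3 comparisons. Each point is a gene, filled where the limma treat test called it. The eIF3 complex and the cytosolic synthetases lie mostly above 0 in both comparisons with NL, with medians of 1.02 and 1.27 in c-MYC.

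Among the 12 cap-binding and eIF4F genes, 4 were called higher (33.3%) and 1 lower (8.33%) in c-MYC than in NL (median log2 fold change 0.52). Of all entries, 24.5% were called higher and 23.6% lower. Eif4e, the cap-binding protein, measured 67.9, 54.4, 67.6 and 65.9 FPKM in the 4 NL libraries. It measured 138, 161 and 159 FPKM in the c-MYC libraries. The groups were clearly apart (log2 fold change 1.26, SE 0.103, limma treat adjusted p = 0.000118). Eif4a1, the RNA helicase of eIF4F, measured 259, 190, 218 and 215 FPKM in NL and 585, 564 and 577 FPKM in c-MYC (log2 fold change 1.39, SE 0.106, adjusted p = 3.76e-05). Its paralog Eif4a2 did not pass the test, at 133 ± 10.2 FPKM (SD, n = 4) in NL and 95.7 ± 12 (SD, n = 3) in c-MYC. The related helicase Eif4a3, a component of the exon junction complex, was called higher, at 157 ± 19.9 and 303 ± 4.96 FPKM. The scaffold genes Eif4g1 (log2 fold change 0.06), Eif4g2 (0.45) and Eif4g3 (0.19), the helicase cofactor Eif4b (0.66) and the cap-binding homolog Eif4e2 (0.59) did not pass the test. Of the 3 pseudogene entries, 1 was called higher.

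Eif4e3, an atypical cap-binding protein, was the cap-binding gene called lower in c-MYC than in NL. It measured 1.85, 1.82, 1.59 and 1.95 FPKM in NL and 0.372, 0.617 and 0.588 FPKM in c-MYC. In FOXO1AAA it measured 3.15, 2.15 and 2.16 FPKM. The c-MYC libraries were thus lower than all others, and the FOXO1AAA libraries were all above NL. The log2 fold change was -1.81 (SE 0.252, limma treat adjusted p = 0.000927) in c-MYC versus NL and 2.25 (SE 0.27, adjusted p = 0.000314) in FOXO1AAA versus c-MYC, and 0.44 without a call in FOXO1AAA versus NL. These comparisons share libraries and are not independent. Eif4e3 shares exon sequence with the annotated gene Gm20696 on the same strand, so that reads of both cannot be told apart. The call against NL was lost with an offset of 1 FPKM on the log2 scale, and with libraries set to the same FPKM total (adjusted p = 0.208).

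Between the tumor groups, the canonical eIF4F genes Eif4e, Eif4a1 and Eif4g1 were not called. Eif4e measured 164, 161 and 156 FPKM and overlapped the c-MYC libraries, and Eif4a1 measured 483, 499 and 517 FPKM, below the c-MYC libraries without a call (log2 fold change -0.20, SE 0.114). Against NL, 5 of the 12 genes were called higher and 0 lower, where 31.2% and 26.6% of all entries were. Eif4b was called higher against NL, at 94.6 ± 14.5 FPKM (SD, n = 4) in NL and 179 ± 2.43 (SD, n = 3) in FOXO1AAA, though not with libraries set to the same median. It differed from c-MYC by 0.27 without a call. The call of Eif4a3 against NL (log2 fold change 0.87, adjusted p = 0.0292) was lost without NL 2, NL 3 or FOXO1AAA 2, where the limma treat adjusted p was 0.0743, 0.0563 and 0.12. Eif4g1 was lower than c-MYC in all 3 libraries, at 93.6 ± 1.38 FPKM against 131 ± 24.3, without passing the test.

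The 14 genes of eIF1, eIF2 and eIF2B choose the start codon, carry the initiator tRNA and recharge eIF2 with GTP. In c-MYC, 8 were called higher and 1 lower than in NL (median log2 fold change 0.87). Of all entries, 24.5% were called higher and 23.6% lower. Eif2s1, the regulated α subunit of eIF2, stood at 12.8 FPKM in NL (SD 1.91, n = 4), 35.9 FPKM in c-MYC (SD 0.65, n = 3) and 35.8 FPKM in FOXO1AAA (SD 1.3, n = 3), a log2 fold change of 1.5 in both comparisons with NL. Eif2s2, the β subunit, was called higher in c-MYC (0.90) and not in FOXO1AAA (0.74), and the difference between the tumor groups was -0.16 without a call. Eif2b5, the catalytic subunit of eIF2B, was called higher in c-MYC (log2 fold change 0.84, SE 0.0922, limma treat adjusted p = 0.0217), but not without NL 2 (adjusted p = 0.0556) or without c-MYC 3 (0.0686). Eif1a, which takes part in scanning, had log2 fold changes of 1.33 and 1.44 against NL in the 2 tumor groups.

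Eif1, which guards against starting at the wrong codon, was the member of this group called lower in c-MYC. It measured 1013, 1007, 1135 and 984 FPKM in NL, 483, 413 and 549 FPKM in c-MYC and 591, 569 and 635 FPKM in FOXO1AAA. The 3 groups did not overlap. In c-MYC versus NL its log2 fold change was -1.11 (SE 0.112, limma treat adjusted p = 0.00114), and the call was lost when libraries were set to the same FPKM total or quantile normalized. Eif1ax, the X-linked copy of Eif1a, rose in both steps. It measured 10.2, 9.03, 8.87 and 8.92 FPKM in NL, 16.9, 17.4 and 17.7 FPKM in c-MYC and 31.7, 38.2 and 34.2 FPKM in FOXO1AAA. Against NL, c-MYC differed by 0.91 on the log2 scale (limma treat adjusted p = 0.00886), and FOXO1AAA differed from c-MYC by a further 0.99 (SE 0.104, adjusted p = 0.006).

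Eif2b4, the δ subunit of eIF2B, was called lower with FOXO1AAA. It measured 43.2, 41.4 and 44.2 FPKM in c-MYC and 17.9, 21.5 and 21.6 FPKM in FOXO1AAA, with no overlap (log2 fold change -1.08, SE 0.136, limma treat adjusted p = 0.009). In NL it measured 31.4, 22.2, 30.1 and 27.6 FPKM, above all FOXO1AAA libraries without a call. Its exons overlap those of Snx17 on the opposite strand, and whether reads were counted by strand is not stated. In this group, 1 gene was called higher and 1 lower in FOXO1AAA versus c-MYC, where 15.9% and 12.7% of all entries were. Of these 14 genes, 5 were called higher and 0 lower against NL, where 31.2% and 26.6% of all entries were.

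The 4 kinases that phosphorylate eIF2α and so lower general translation did not move together. Eif2ak3 (PERK, the endoplasmic reticulum stress sensor) measured 4.08, 3.58, 3.27 and 4.03 FPKM in NL. It measured 7.16, 9.71 and 5.78 FPKM in c-MYC and 3.16, 2.98 and 2.96 FPKM in FOXO1AAA. All c-MYC libraries were the highest and all FOXO1AAA libraries the lowest. The log2 fold change was 0.99 in c-MYC versus NL (SE 0.179, limma treat adjusted p = 0.0491) and -1.28 in FOXO1AAA versus c-MYC (SE 0.191, adjusted p = 0.00897). The first of these calls was marginal. It was lost without NL 2, NL 3, NL 4, c-MYC 1, c-MYC 2 or any of the FOXO1AAA libraries, with adjusted p of 0.0565 to 0.214, while the second was kept in each. Eif2ak3 shares exon sequence with Gm43292 on the opposite strand. Eif2ak1 (the heme-regulated kinase), Eif2ak2 (PKR) and Eif2ak4 (GCN2) were not called in any comparison. Their levels in NL, c-MYC and FOXO1AAA averaged 13.4, 8.82 and 9.83 FPKM for Eif2ak1, 3.9, 3.42 and 2.57 for Eif2ak2, and 2.97, 4.84 and 4.71 for Eif2ak4.

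The eIF3 complex, the largest initiation factor, had 10 of 14 genes called higher and 0 lower in c-MYC than in NL (median log2 fold change 1.02). Of all entries, 24.5% were called higher and 23.6% lower. Summed over its genes, the level was 846 to 1070 FPKM in NL, 1854 to 1993 in c-MYC and 1774 to 1978 in FOXO1AAA. In FOXO1AAA versus NL, 7 of the 14 were called higher and 0 lower (median 0.81), against 31.2% and 26.6% of all entries. Between the tumor groups, 1 gene was called higher and 1 lower (7.14% each), against 15.9% and 12.7% of all entries. Eif3a, the large scaffold subunit, measured 36.0, 25.6, 29.6 and 29.7 FPKM in NL, 123, 136 and 92.0 FPKM in c-MYC and 51.4, 47.7 and 56.7 FPKM in FOXO1AAA. Its log2 fold change of 1.94 in c-MYC versus NL (SE 0.151, limma treat adjusted p = 1.05e-05) was the largest among the initiation factor genes on the deposited scale, where the prior count holds down changes of low genes such as Eif5a2. The FOXO1AAA libraries lay between the other groups (log2 fold change -1.16 versus c-MYC, SE 0.162, adjusted p = 0.0107). Eif3f, a subunit of the outer module, measured 75.5, 53.9, 61.9 and 61.3 FPKM in NL, 87.6, 80.2 and 87.8 FPKM in c-MYC and 177, 195 and 202 FPKM in FOXO1AAA. It was not called in c-MYC versus NL (log2 fold change 0.44) and was called higher with FOXO1AAA (1.16, SE 0.123, adjusted p = 0.00201). The other 12 subunit genes changed by -0.64 to 0.33 on the log2 scale between the tumor groups, with no call.

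**Figure D2:**
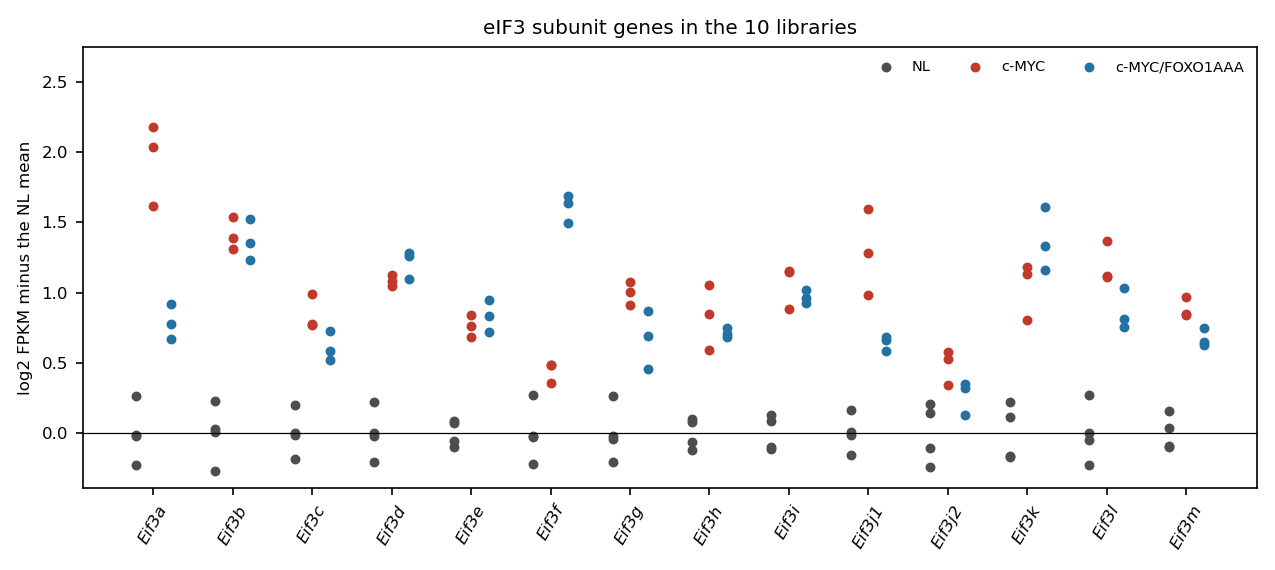
Log2 FPKM of the eIF3 subunit genes in each of the 10 libraries, minus the NL mean of the same gene. Points are libraries. Eif3a (log2 fold change 1.94 in c-MYC versus NL, -1.16 between the tumor groups) and Eif3f (0.44 and 1.16) depart from the other subunits between the tumor groups.

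Of the 5 genes for subunit joining and eIF5A, 2 were called higher and 0 lower in c-MYC than in NL. The shares of all entries were 24.5% and 23.6%. In FOXO1AAA versus c-MYC, 1 of the 5 was called higher and 1 lower, against 15.9% and 12.7% of all entries. Eif5a, which helps the ribosome through difficult peptide bonds, measured 532, 443, 542 and 485 FPKM in NL and 1120, 1046 and 1212 FPKM in c-MYC. In FOXO1AAA it measured 1163, 1251 and 1162 FPKM. Both tumor groups were apart from NL (log2 fold changes 1.17 and 1.26) and overlapped each other. Its paralog Eif5a2 behaved differently. Eif5a2 had 0, 1, 3 and 1 reads in NL, 15, 16 and 9 reads in c-MYC and 1014, 635 and 554 reads in FOXO1AAA. The matching levels in the tumors were 0.186, 0.192 and 0.121 FPKM in c-MYC and 8.21, 4.25 and 5.64 FPKM in FOXO1AAA. Between the tumor groups its log2 fold change was 5.16 (SE 0.465, limma treat adjusted p = 1.21e-05), the largest of any member in that comparison. Eif5a2 passed the filter on low values (1 FPKM in 3 libraries) through the FOXO1AAA libraries alone, where it is high, and was also called there with no filter. Pooled over libraries and scaled to library size, FOXO1AAA had 41.3 times the reads of c-MYC, with a 95% interval of 30.2 to 58.0 for counting error only, and c-MYC had 5.65 times those of NL (2.23 to 18.3). The call in c-MYC versus NL (log2 fold change 1.86, adjusted p = 0.0167) was weak. It was lost without c-MYC 1 (0.0544) or c-MYC 2 (0.056), with an offset of 0.1 or 1 FPKM, with a 2-fold threshold, with the replicate number as a block and with limma voom on recovered reads, and the log2 fold change ran from 0.15 to 2.79 over the alternatives. The call between the tumor groups was kept without each library.

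Eif5b, the GTPase that joins the ribosomal subunits, measured 18.1, 13.2, 13.6 and 15 FPKM in NL, 20.5, 26.6 and 22.4 FPKM in c-MYC and 9.14, 11 and 10.7 FPKM in FOXO1AAA. The FOXO1AAA libraries were the lowest of all and the c-MYC libraries the highest (log2 fold change -1.17 between the tumor groups, SE 0.148, limma treat adjusted p = 0.00577). Its exons overlap those of Rev1 on the opposite strand. Eif5, which triggers GTP hydrolysis by eIF2, was not called in any comparison, with means of 401, 345 and 309 FPKM in NL, c-MYC and FOXO1AAA. Eif6, which keeps free large subunits apart, was called higher in FOXO1AAA than in NL (log2 fold change 0.88, adjusted p = 0.0416). That call was lost without NL 2, NL 3, NL 4, c-MYC 1, FOXO1AAA 2 or FOXO1AAA 3, with adjusted p of 0.0507 to 0.144.

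The comparison of the tumor groups called few members. In FOXO1AAA versus c-MYC, 4 of 86 were called higher (Eif5a2, Eif4e3, Eif3f and Eif1ax) and 5 lower (Cars2, Eif2ak3, Eif5b, Eif3a and Eif2b4), against 15.9% and 12.7% of all 14017 entries. The members' median log2 fold change was -0.22 and that of all entries 0.03. The medians were -0.09 for initiation factors, -0.40 for cytosolic and -0.53 for mitochondrial synthetases. The direction for initiation factors depended on scaling, at 0.08 with the same FPKM total and 0.11 with quantile normalization, while both synthetase medians were below 0 under each. Relative to all entries, the members' median was -0.25, and 0.01 under quantile normalization. Members were lower without overlap more often than higher, 42 against 10, where 30.7% of all entries were lower and 32.7% higher without overlap. As a share of reads they went the other way, at 2.02% to 2.06% in c-MYC and 2.07% to 2.15% in FOXO1AAA. Initiation factors took 1.43% to 1.46% of reads in c-MYC and 1.58% to 1.62% in FOXO1AAA. Synthetases took 0.566% to 0.612% and 0.487% to 0.528%. Without a fold threshold in the limma test, 7 members were called higher and 31 lower, against 28.4% and 26.4% of all entries, so that most of the decreases were smaller than 1.5-fold or not separable from it. Markers of other cell types moved in the same comparison. The 6 muscle markers were all called higher with a median log2 fold change of 6.05, 4 of 7 fibroblast markers were called higher, and 6 of 10 hepatocyte markers were called lower and 2 higher. The part of these cells or genes in the members' changes was not tested.

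**Figure D3:**
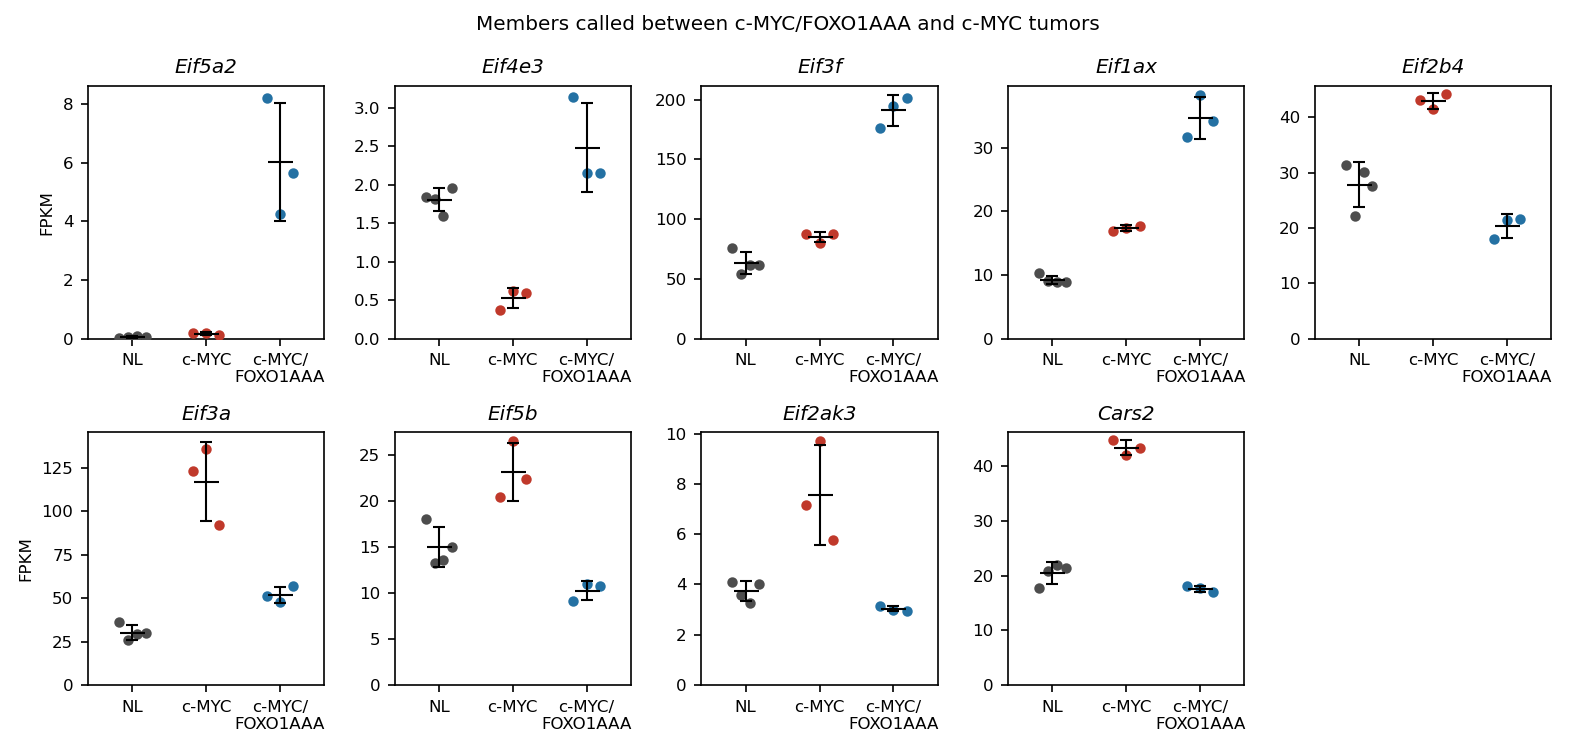
FPKM by library of the 9 members called between the tumor groups. Points are libraries of NL (n = 4), c-MYC (n = 3) and c-MYC/FOXO1AAA (n = 3), and lines give the mean and SD. In each panel the c-MYC and c-MYC/FOXO1AAA points do not overlap, and the widest gap is that of Eif5a2 (0.121 to 0.192 against 4.25 to 8.21 FPKM).

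Cytosolic synthetases were the class with the largest share called. In c-MYC versus NL, 14 of 19 were called higher and 1 lower, with a median log2 fold change of 1.27. Of all entries, 24.5% were called higher and 23.6% lower. Their summed level was 443 to 571 FPKM in NL, 1076 to 1160 in c-MYC and 805 to 889 in FOXO1AAA. Vars, for valine, measured 21.7, 11.3, 16.4 and 14.3 FPKM in NL, 73.2, 73.1 and 74.4 FPKM in c-MYC and 56.4, 66.7 and 57.1 FPKM in FOXO1AAA. Iars, for isoleucine, measured 15.9, 10.2, 11.4 and 11.7 FPKM in NL, 44.5, 59.6 and 45.1 FPKM in c-MYC and 33.5, 36.5 and 31.4 FPKM in FOXO1AAA. For both genes the 3 groups did not overlap, with c-MYC highest. In c-MYC versus NL, log2 fold changes were 2.25 (SE 0.181, limma treat adjusted p = 9.1e-06) for Vars and 2.02 (SE 0.159, adjusted p = 1.01e-05) for Iars. Kars, Lars and Gars, for lysine, leucine and glycine, followed with 1.78, 1.71 and 1.70. Cars, Dars, Mars and Tars, for cysteine, aspartate, methionine and threonine, were not called and changed by 0.36 to 0.61 on the log2 scale.

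Aars, for alanine, was the exception among the cytosolic synthetases. It measured 62.4, 50.6, 47.3 and 55.5 FPKM in NL, 13.2, 16.7 and 13.7 FPKM in c-MYC and 14.3, 16.8 and 13.4 FPKM in FOXO1AAA. The tumor groups overlapped each other and lay far below NL. The log2 fold change was -1.89 (SE 0.13, limma treat adjusted p = 4.89e-06) in c-MYC and -1.86 (SE 0.13, adjusted p = 3.56e-06) in FOXO1AAA. With every library set to the same FPKM total, the second call was lost (adjusted p = 0.139). Aars shares exon sequence with Exosc6, a subunit of the RNA exosome, on the same strand, so that reads from that stretch can belong to either. The promoter window of Aars holds both CACGTG and TGATGCAA, which begin 146 and 112 bases before the start.

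In FOXO1AAA, 8 of 19 cytosolic synthetases were called higher than in NL and 1 lower (median log2 fold change 0.82), against 31.2% and 26.6% of all entries. Versus c-MYC, 0 were called in either direction by the limma treat test, with a median of -0.40. Of all entries, 15.9% were called higher and 12.7% lower there. Without a fold threshold 10 of 19 were lower and 0 higher, where 26.4% and 28.4% of all entries were. All FOXO1AAA libraries were below all c-MYC libraries for 13 of 19 and above for 1, Wars, for tryptophan (24.8 ± 1.74 FPKM in c-MYC and 28.3 ± 1.82 in FOXO1AAA, SD, n = 3). Of all entries, 30.7% were lower and 32.7% higher without overlap. The changes of the class ran from -0.74 for Hars to 0.19 for Wars on the log2 scale.

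Mitochondrial synthetases were less uniform. In c-MYC versus NL, 7 of 15 were called higher and 1 lower (median log2 fold change 0.91). Of all entries, 24.5% were called higher and 23.6% lower. The summed level of the class was 588 to 655 FPKM in NL, 657 to 822 in c-MYC and 508 to 537 in FOXO1AAA. Lars2 alone gave a large part of this sum, and without it the range was 276 to 341 FPKM in NL, 480 to 508 in c-MYC and 336 to 358 in FOXO1AAA, so that FOXO1AAA lies below NL with Lars2 and overlaps it without. Mars2, for methionine, measured 0.684, 0.377, 0.591 and 0.602 FPKM in NL and 4.45, 5.08 and 5.51 FPKM in c-MYC. In FOXO1AAA it measured 3.15, 2.84 and 2.56 FPKM. It had the largest fold of any member in c-MYC versus NL (log2 fold change 3.18, SE 0.235, limma treat adjusted p = 2.38e-06), and the 3 groups did not overlap. It passed the filter on low values through the tumor libraries alone. Rars2 and Yars2, for arginine and tyrosine, followed with 1.55 and 1.54. Lars2, for leucine, varied among the c-MYC libraries, at 314, 177 and 254 FPKM in c-MYC, 260, 313, 331 and 371 FPKM in NL and 171, 179 and 171 FPKM in FOXO1AAA, and it was not called in any comparison.

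Fars2, for phenylalanine, was called lower than NL in both tumor groups. It measured 69.0, 59.0, 65.6 and 65.9 FPKM in NL, 35.5, 31.8 and 31.9 FPKM in c-MYC and 16.9, 20.6 and 24.6 FPKM in FOXO1AAA, with no overlap between any of the groups. The log2 fold change was -0.97 (SE 0.125, limma treat adjusted p = 0.0128) in c-MYC versus NL and -1.66 (SE 0.125, adjusted p = 9.8e-06) in FOXO1AAA versus NL. The first call was lost under the same FPKM total and under quantile normalization, and the second under the same FPKM total. Exons of Fars2 overlap those of Lyrm4 and Nrn1 on the opposite strand.

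Cars2, for cysteine, was the synthetase called between the tumor groups. It measured 17.7, 20.8, 22.0 and 21.4 FPKM in NL, 44.8, 42.1 and 43.2 FPKM in c-MYC and 18.0, 17.7 and 17.0 FPKM in FOXO1AAA. The c-MYC libraries stood alone, and FOXO1AAA overlapped NL. The log2 fold change was 1.09 in c-MYC versus NL (SE 0.095, limma treat adjusted p = 0.000512) and -1.30 in FOXO1AAA versus c-MYC (SE 0.102, adjusted p = 0.000121). Its exons overlap those of Naxd, a metabolite repair enzyme, on the opposite strand. Of the other mitochondrial synthetases, 10 were also lower than c-MYC without overlap and were not called, and Wars2, for tryptophan, was higher without overlap (3.37 ± 0.336 FPKM in c-MYC and 4.58 ± 0.216 in FOXO1AAA, SD, n = 3). Of all entries, 30.7% were lower and 32.7% higher without overlap between the tumor groups. Against NL, 3 of 15 were called higher in FOXO1AAA and 1 lower (median log2 fold change 0.42), where 31.2% and 26.6% of all entries were.

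**Figure D4:**
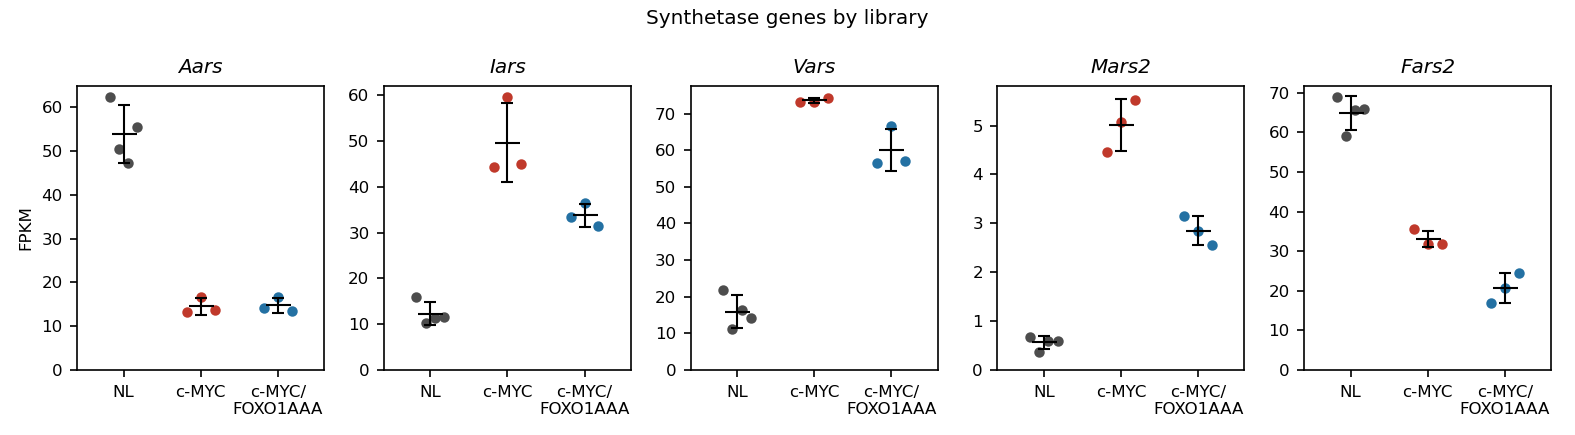
FPKM by library of Aars, Iars, Vars, Mars2 and Fars2 in NL (n = 4), c-MYC (n = 3) and c-MYC/FOXO1AAA (n = 3). Points are libraries, and lines give the mean and SD. Aars and Fars2 are lower in every tumor library than in every NL library, and the other 3 are higher.

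Setting each cytosolic enzyme beside the mitochondrial enzyme for the same amino acid gave 16 pairs, with Farsa and Farsb, the subunits of the cytosolic phenylalanine enzyme, both against Fars2. Within a pair the changes from NL differed widely. In c-MYC versus NL the log2 fold change of the mitochondrial gene was below that of the cytosolic gene in 9 pairs and above it in 7. The difference, mitochondrial minus cytosolic, ran from -2.65 to 2.76 with a median of -0.24, and 9 pairs differed by more than 1. The cytosolic gene had the higher log2 fold change for isoleucine (by 1.76), leucine (2.10), valine (1.77), asparagine (1.03), histidine (1.42) and phenylalanine (2.65 for Farsa and 2.25 for Farsb), and the mitochondrial gene for methionine (2.76). For alanine the difference was 1.65, with Aars called lower (-1.89) and Aars2 not called (-0.24). The log2 ratio of the pair was lower in c-MYC without overlap in 7 pairs and higher in 5. In their own level, 34.9% of all entries were lower and 39% higher without overlap. Between the tumor groups, 8 pairs differed in each direction, with a median difference of -0.04 and a range of -1.48 to 0.70. The log2 ratio did not overlap there in 7 pairs on the lower and 4 on the higher side. Of all entries, 30.7% were lower and 32.7% higher without overlap there in their own level. Cars and Cars2 were the pair over 1 there, with Cars at 22 ± 1.4 FPKM in c-MYC and 24.9 ± 1.9 in FOXO1AAA. In FOXO1AAA versus NL, the mitochondrial value was the lower in 11 pairs and the higher in 5, with a median difference of -0.56. Exons of Hars and Hars2 overlap on opposite strands, as do those of Mars and Ddit3 and of Farsb and Sgpp2.

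**Figure D5:**
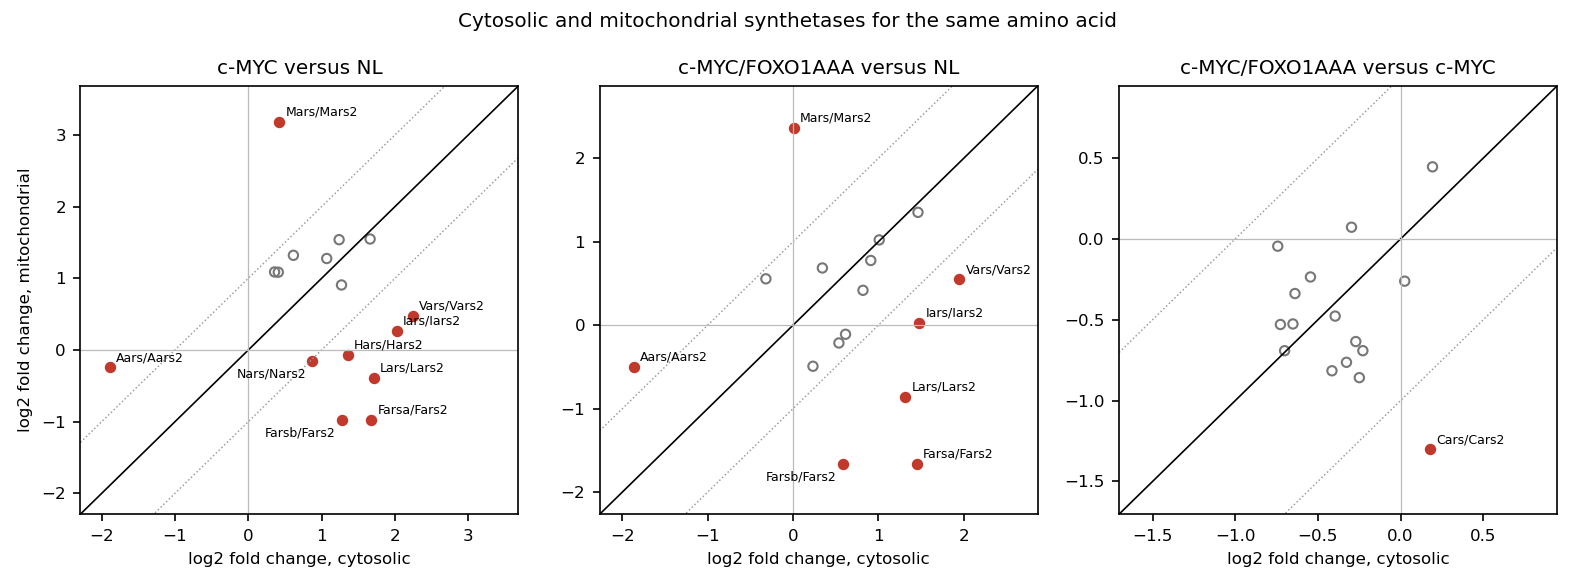
Log2 fold change of the mitochondrial gene (vertical) against that of the cytosolic gene for the same amino acid (horizontal) in the 3 comparisons, 16 pairs each. The solid line marks equal change and the dotted lines a difference of 1, and filled, named points lie beyond it: 9 pairs for c-MYC and 7 for c-MYC/FOXO1AAA against NL, and 1 between the tumor groups.

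The medians of the classes differed by less than the pairs named above. In c-MYC versus NL and between the tumor groups they differed by more than the median pair. The mitochondrial median minus the cytosolic one was -0.36 in c-MYC versus NL, -0.13 in FOXO1AAA versus c-MYC and -0.40 in FOXO1AAA versus NL, with no test, since genes are not replicates. Without NL 2 the first of these was -0.20. Apart from the sums over genes, levels in FPKM were compared within a gene only. The values show that the authors divided by the length of 1 transcript per gene. This was 434 bases for Rars2, 704 for Cars2 and 11294 for Mars2. A change of 1 gene between groups does not depend on that length. A sum weights its genes by it, so the sums and the part of Lars2 in them do depend on it.

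Relative to NL, FOXO1AAA tumors had 32 of 86 members called higher (37.2%) and 2 lower, Aars and Fars2, against 31.2% and 26.6% of all entries. The median log2 fold change was 0.67 for members and 0.21 for all entries. There were 59 members higher and 16 lower without overlap, against 44.1% and 36% of all entries. The share called higher was thus close to that of all entries, and the share called lower was smaller. This comparison shares NL libraries with the first comparison and FOXO1AAA libraries with that of the tumor groups, so its values are given as a description of both steps together.

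Genes that work with the members were read from lists fixed alongside them. The eIF4E-binding proteins block eIF4E and were left out of the members by rule. Eif4ebp1 averaged 39.3, 65.3 and 77.4 FPKM in NL, c-MYC and FOXO1AAA and was called higher in the last against NL. Eif4ebp2 was called lower in both tumor groups, at 364, 173 and 187 FPKM, and so was Eif4ebp3, at 6.14, 0.912 and 0.518 FPKM. The whole list held 15 translation inhibitors and regulators. In c-MYC versus NL, 3 were called higher and 5 lower (median log2 fold change -0.43), against 24.5% and 23.6% of all entries. Between the tumor groups 1 was called higher and 0 lower, against 15.9% and 12.7% of all entries. The 3 scaffold proteins of the multisynthetase complex, Aimp1, Aimp2 and Eef1e1, were all called higher in c-MYC than in NL, by 0.96, 1.96 and 2.10 on the log2 scale, and 0 of 3 were called between the tumor groups.

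Synthetases that the symbol rule did not match moved in the same range. Eprs, the joint glutamate and proline enzyme, averaged 36, 73.3 and 43.4 FPKM in NL, c-MYC and FOXO1AAA and was called higher in c-MYC versus NL (log2 fold change 1.03). Pars2, the mitochondrial proline enzyme, averaged 2.40, 8.90 and 6.27 FPKM and was called higher in both tumor groups (1.93 and 1.42), while Ears2, for glutamate, was not called. The 6 genes for mitochondrial initiation and tRNA charging had 0 called higher and 1 lower in c-MYC versus NL. Of all entries, 24.5% were called higher and 23.6% lower. Mtif3, a mitochondrial initiation factor, averaged 10.7, 6.84 and 3.99 FPKM and was called lower in FOXO1AAA than in NL (-1.47).

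Atf4, the transcription factor that is translated when eIF2α is phosphorylated and that is known to drive several synthetase genes, was read with its target genes. Of 16 tested, 4 were called higher and 3 lower in c-MYC versus NL (median log2 fold change -0.35), with 24.5% and 23.6% of all entries called. In FOXO1AAA versus c-MYC, 6 were called higher and 0 lower (median 0.72), against 15.9% and 12.7% of all entries. In FOXO1AAA versus NL, 6 were called higher and 1 lower, against 31.2% and 26.6% of all entries. Asns, for asparagine synthesis, averaged 4.26, 117 and 47.8 FPKM in NL, c-MYC and FOXO1AAA, a log2 fold change of 5.26 in c-MYC and 3.97 in FOXO1AAA against NL. Ddit3, which encodes the stress factor CHOP, was called lower in c-MYC (-1.20) and higher with FOXO1AAA versus c-MYC (0.92). Atf4 and Trib3 were not called in any comparison. In FOXO1AAA versus c-MYC, 0 of 19 cytosolic synthetases were called higher and 0 lower, where 15.9% and 12.7% of all entries were. A link between Atf4 and the synthetase genes was not tested.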

How the data were processed

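Total RNA from 10 mouse livers or liver tumors was sequenced. The authors counted reads per gene and analyzed those counts with edgeR, as their methods state. The deposited values are log2 FPKM, scaled by the authors to gene length and to effective library size. A prior of 2 reads, adjusted for library size, is contained in every value, and a gene without reads therefore lies above 0 FPKM. The submitters' processing notes name GRCm38 and FastQC 0.11.7. The aligner, the counting tool, the annotation and strand handling are not given in the sources used here.

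Samples were grouped by their titles. Of 17069 entries, 372 had no symbol and were left out. Because each value is a whole read count plus the prior over a gene length, the read counts could be recovered, with 1 solution for 16669 of 16697 gene entries (99.8323%, tolerance 0.01 reads). Counting intervals are at 95%, and they cover counting error only. Effective library size divided by recovered reads was 0.652 to 0.687 in NL, 1.26 to 1.30 in c-MYC and 1.45 to 1.50 in c-MYC/FOXO1AAA.

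The count model of the study was not used, since the deposited unit is log2. The filter was 1 FPKM or more in 3 or more libraries, and 14017 entries passed it, all 86 members included. Group means were fitted over all 10 libraries in limma 3.58.1 (R 4.3.3), and treat tested for a change above 1.5-fold, 2-sided, with trend and robust estimation and Benjamini-Hochberg adjustment over all entries tested. Log2 fold changes carry the prior count and so understate changes of low genes. The fit was checked on simulated data with known changes. P-values measure the spread between these mice.

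The members and gene lists were chosen with earlier results of these data known. Named genes were the 6 members with the largest change in each direction and comparison, all members called between the tumor groups, a panel of central factors and the synthetase pairs that differed by more than 1. Dars, Tars, Rars2, Yars2, Wars and Wars2 were named after their values were seen. Gene positions and exon overlaps of at least 50 bases are those of GENCODE M21 (GRCm38), matched by symbol for all 86. The alternatives were other offsets, filters, scalings, fold thresholds and variance settings, a fit over 2 groups, replicate numbers as a block, leaving out 1 library at a time, and limma voom on recovered reads, which was added after the data were seen. Same-numbered samples did not deviate together over the entries tested (correlations of -0.04 to 0.03), and differently numbered ones ranged from -0.07 to 0.07. A pairing that touches few genes would not be seen in this way. The check thus showed no pairing by number and cannot exclude it.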

Additional observations from a re-analysis of the deposited data

Results flagged for a closer look

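Among the 49 named members, the 4 NL libraries were checked for a library that stands apart by its gap to the nearest other library over the range of the group, against Dixon's critical value for 4 values at 95%. Eif1ax stood out in NL 1, at 10.2 FPKM, the highest of the 4 (gap over range 0.88). Eif4e stood out in NL 2, at 54.4 FPKM, the lowest of the 4 (gap over range 0.861). Chance flags about 1 in 20 such groups, and groups of 3 libraries were not tested.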

How the results depend on the processing

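Of the 53 called results for named members, 0 changed direction under the alternatives that were run, and members that were not called were not followed in this way. In c-MYC versus NL, 47 members called higher became 74 with libraries set to the same FPKM total and 21 with a 2-fold threshold. The 4 called lower became 1 with the same FPKM total, 2 with quantile normalization, 7 with no fold threshold and 2 with a 2-fold threshold. In c-MYC/FOXO1AAA versus c-MYC, 4 called higher became 2 with a mean of at least 5 FPKM, 7 with no fold threshold and 2 with a 2-fold threshold, and 5 called lower became 31 and 1 with no threshold and with 2-fold. In c-MYC/FOXO1AAA versus NL, 32 called higher became 69 with the same FPKM total, 52 with quantile normalization, 61 with no fold threshold and 17 with 2-fold, and 2 called lower became 0 with the same FPKM total and 15 with no fold threshold. The same FPKM total moved the median of all entries to 1.01, 0.20 and 1.31 in the 3 comparisons, from 0.08, 0.03 and 0.21. The mitochondrial minus cytosolic median of -0.36 in c-MYC versus NL became -0.56 with an offset of 1 FPKM, -0.79 with a mean of at least 5 FPKM and -0.50 with quantile normalization, and -0.40 in c-MYC/FOXO1AAA versus NL became -0.79 with a mean of at least 5 FPKM and -0.77 with quantile normalization. A stricter filter or threshold tests fewer genes or a larger change, and the cause of the other moves was not tested.

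Leaving out each library in turn gave 44 to 47 members higher and 4 to 4 lower in c-MYC versus NL, 4 to 4 and 5 to 5 between the tumor groups, and 29 to 35 and 2 to 4 in c-MYC/FOXO1AAA versus NL, where 4 arose without c-MYC 2, a library that enters this comparison through the shared spread alone. The class difference ran from -0.45 to -0.20, from -0.25 to -0.05 and from -0.45 to -0.35. With the replicate number as a block, 42 members were higher and 4 lower in c-MYC versus NL, 4 and 5 between the tumor groups, and 29 and 2 in c-MYC/FOXO1AAA versus NL, with class differences of -0.37, -0.13 and -0.35. Limma voom on recovered reads gave 46 and 4, 4 and 5, and 33 and 2. Of 53 results for named members, 28 kept their call under every alternative run, and of 1210 alternative values 69 lost the call with the direction kept. Low depth limits Eif5a2 in NL and c-MYC and the pseudogene entries.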

Other observations

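The order of the NL libraries was not even across members. NL 1 was the highest of the 4 for 63 of 86 members and NL 2 the lowest for 51. Mki67, a proliferation marker, measured 1.74, 0.18, 0.633 and 0.588 FPKM in NL 1 to NL 4. Without NL 1, 47 members were called higher and 4 lower in c-MYC versus NL by limma treat.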
